A study of Homo sapiens with 4 samples.

Results

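The genes described here are 6 transcription factors of endoderm lineages, FOXA1, FOXA2, FOXA3, HNF4A, HNF4G and GATA6, and CPS1, a liver enzyme gene read as a reporter of a hepatic program. They were taken by gene name from a table of 16371 genes and 56389 transcripts, in which these 7 genes had 19 listed transcripts. RNA was sequenced from clusters of A549, a line derived from a human lung adenocarcinoma. The shDUSP23 group carried a knockdown of the phosphatase gene DUSP23, and the shMock group was its mock counterpart, with the genotype given as wild type. Each group had 2 libraries of this single line, whose titles also carry the tag SUS without explaining it, and the number of hairpins is not given. The labels do not say whether a group's libraries were grown as separate cultures. Every p-value below therefore reflects the spread among these libraries alone.

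FOXA proteins are forkhead factors that bind target sites in closed chromatin and open them for other factors. HNF4A and HNF4G are nuclear receptors that bind DNA as dimers, and GATA6 is a zinc finger factor of endoderm. Together with C/EBP factors they set up liver and gut gene expression, while FOXA1, FOXA2 and GATA6 are also used in the developing lung with NKX2-1. CPS1 makes carbamoyl phosphate from ammonia in mitochondria, the entry step of the urea cycle. It is known to be expressed in lung adenocarcinoma cells that have lost the kinase LKB1, as A549 has.

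The 7 genes did not move as a group. CPS1 and FOXA2 were lower in shDUSP23 clusters, GATA6 and FOXA1 were higher, and FOXA3, HNF4A and HNF4G did not pass the test. CPS1 averaged 24.2 ± 2.15 FPKM in shDUSP23 and 101.5 ± 11.1 FPKM in shMock, a level 4.20 times lower, whereas GATA6 averaged 7.47 ± 0.33 and 3.15 ± 0.56 FPKM, 2.37 times higher (SD, n = 2 libraries per group). FPKM, a fragment count scaled for transcript length and depth, was computed by the authors for each transcript and is summed per gene here. limma was fitted on log2(FPKM + 0.5) over the 13691 genes whose mean reached 1 FPKM. That mean was taken over all libraries, so a gene low in 1 group could pass through the other. Calls were made where the p-value, adjusted by the Benjamini-Hochberg method, was below 0.05, and fold changes are shDUSP23 minus shMock on that scale. All 7 genes passed the filter and 4 of them were called, 2 higher and 2 lower. Over all genes tested 45.3% were called, 23.1% higher and 22.2% lower, so the share of called genes among the 7 lay near that of the table. In these bulk libraries fewer cells expressing a gene and less RNA of it per cell cannot be told apart.

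The libraries held 26997360 and 42236515 fragments in shDUSP23 and 21274750 and 25243740 in shMock, as recovered from the steps of low FPKM values. DUSP23 had 1.71 and 2.71 FPKM in shDUSP23 against 29.96 and 35.9 FPKM in shMock (log2 fold change -3.64, SE 0.22; limma adjusted p = 3.12e-05). Epithelial markers were present in every library, and KRT8 had 917 and 999 FPKM in shDUSP23 against 1144 and 1153 FPKM in shMock. Of the 17 lung epithelial markers 7 were listed. Among them was the surfactant gene SFTPA2, at 1.128 and 0.914 FPKM in shDUSP23 against 0.406 and 0.396 FPKM in shMock, which was below the filter. The surfactant genes SFTPB and SFTPC and the club cell gene SCGB1A1 were not listed, nor was NKX2-1. Of 10 markers of blood, stroma and endothelium 4 were listed, with a summed level of 5.55 and 5.90 FPKM in shDUSP23 against 7.86 and 10.6 FPKM in shMock, and PTPRC, CD3E, PECAM1, VWF and CDH5 were not.

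**Figure D1:**
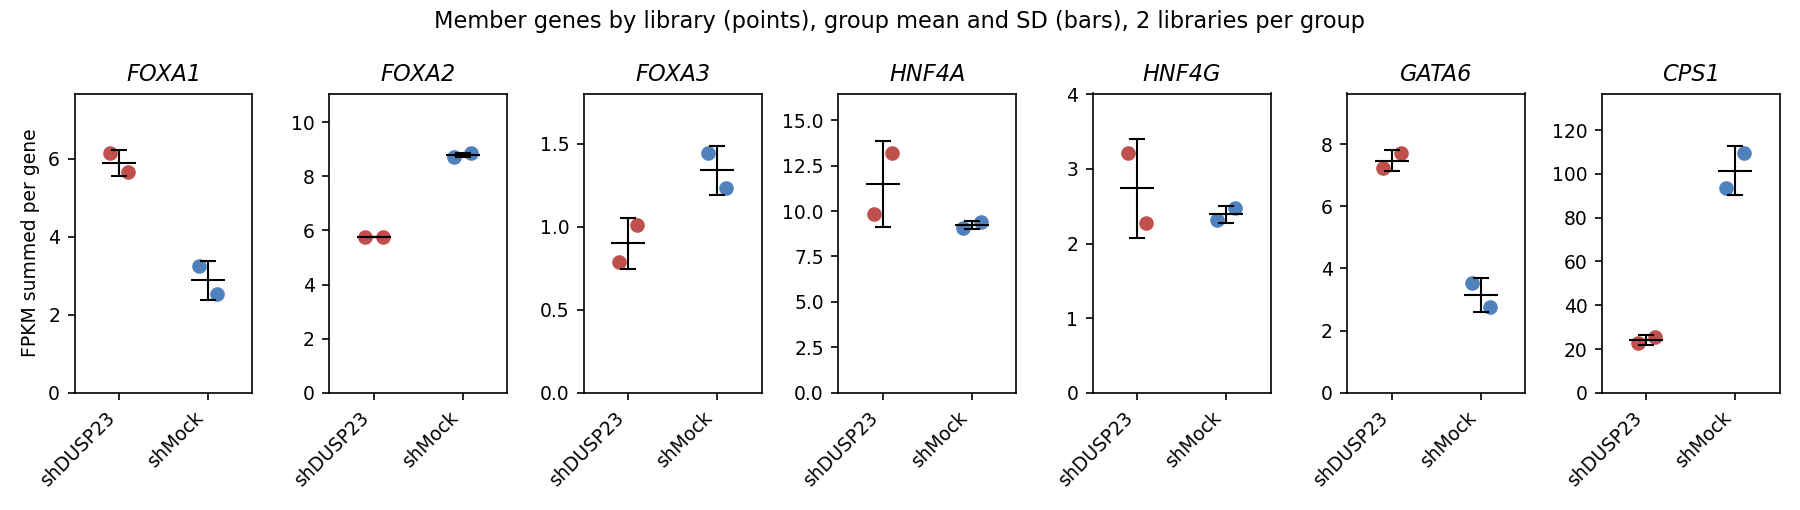
FPKM summed per gene (y axis, each panel on its own scale from 0) in the shDUSP23 and shMock libraries, with points for libraries and bars for the group mean and SD (n = 2). Only the HNF4G panel shows libraries of the groups overlapping, and CPS1 stands at 22.6 and 25.7 FPKM in shDUSP23 against 93.7 and 109.4 FPKM in shMock.

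Sequence windows upstream of the start sites were set beside these values. FOXA1, GATA6 and FOXA3 have a RefSeq start (GRCh38.p14) at exactly the base where a listed transcript begins. CPS1 and HNF4A have transcripts from separate starts. RefSeq windows were found for 5 of the 7 genes, 8 windows in all. No window lay at the start of CPS1-201, the leading CPS1 transcript in every library. The FOXA3 window is not shown. The 250 bases before the start are shown on the gene's strand, with capitals marking GATA-type motifs.
CPS1 upstream start, chr2:210477435-210477684, plus strand: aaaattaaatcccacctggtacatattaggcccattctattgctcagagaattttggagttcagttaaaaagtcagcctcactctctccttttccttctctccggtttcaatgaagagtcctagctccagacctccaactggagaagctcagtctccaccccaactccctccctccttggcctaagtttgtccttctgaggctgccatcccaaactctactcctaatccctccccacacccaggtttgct
FOXA1, chr14:37595250-37595499, minus strand: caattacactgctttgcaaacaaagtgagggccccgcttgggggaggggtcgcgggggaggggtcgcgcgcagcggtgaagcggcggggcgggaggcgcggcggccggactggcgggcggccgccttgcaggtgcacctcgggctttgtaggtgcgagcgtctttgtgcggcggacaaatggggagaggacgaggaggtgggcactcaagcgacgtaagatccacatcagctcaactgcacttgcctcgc
GATA6, chr18:22169339-22169588, plus strand: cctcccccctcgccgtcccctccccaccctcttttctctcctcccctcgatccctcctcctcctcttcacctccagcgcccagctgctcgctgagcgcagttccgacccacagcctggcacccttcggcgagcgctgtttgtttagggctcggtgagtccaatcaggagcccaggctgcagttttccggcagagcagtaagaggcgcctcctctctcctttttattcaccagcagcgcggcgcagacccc
HNF4A upstream start, chr20:44355449-44355698, plus strand: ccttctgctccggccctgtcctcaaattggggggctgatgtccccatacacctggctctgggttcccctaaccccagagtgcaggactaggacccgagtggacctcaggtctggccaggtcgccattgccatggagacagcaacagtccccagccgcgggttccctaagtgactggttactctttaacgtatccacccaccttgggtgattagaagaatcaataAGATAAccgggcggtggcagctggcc
HNF4A downstream start, chr20:44400989-44401238, plus strand: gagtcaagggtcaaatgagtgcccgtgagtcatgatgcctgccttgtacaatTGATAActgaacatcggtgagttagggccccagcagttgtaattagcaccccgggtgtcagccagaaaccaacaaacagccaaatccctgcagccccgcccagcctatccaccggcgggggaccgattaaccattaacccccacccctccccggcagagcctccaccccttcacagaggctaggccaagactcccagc
The windows of FOXA1 and GATA6 were rich in G and C, at 69.3% and 66.7% of 300 bases, against 45.3% in the upstream CPS1 window. Of the genes that did not pass, FOXA3 had the highest share of all, 76.3%, and the HNF4A windows had 60.0% and 57.7%. Motifs were searched on both strands of the full windows, which run from 250 bases before to 50 after the start. The FOXA motifs TGTTTAC and TATTTAC and the HNF4 motif CAAAGTC were found in 0 of the 8 windows, and in 3.42%, 2.67% and 3.37% of all 35116 RefSeq windows. The GATA motifs AGATAA and TGATAA, which did not overlap each other in these windows, occurred in 3 and 2 of the 8 windows, and in 10.33% and 7.53% of all windows. At least 1 of them was in 4 of the 8 windows, against 16.31% of all windows. Of the 5 matches 3 lay in the 2 CPS1 windows not shown, whose RefSeq starts, 210519718 and 210593355, begin no listed CPS1 transcript. Among the windows shown, AGATAA began at position -26 from the upstream HNF4A start and TGATAA at -198 from the downstream start. A match describes the letters only, and no binding was measured.

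CPS1 (ENSG00000021826, chromosome 2, plus strand) had the largest change of the 7. It had 22.6 and 25.7 FPKM in the shDUSP23 libraries against 93.7 and 109.4 FPKM in the shMock libraries. Both shDUSP23 libraries lay far below both shMock libraries (log2 fold change -2.05, SE 0.13; limma adjusted p = 3.74e-05). CPS1 was the most abundant of the 7 in both groups, and the factors lay at 0.790 to 13.2 FPKM in shDUSP23 and at 1.24 to 9.39 FPKM in shMock. Its nearest match in pattern over the 4 libraries, by Euclidean distance of centred log2 values among 9876 genes averaging 5 FPKM or more, was CP, the plasma copper protein ceruloplasmin, at a distance of 0.097. CP had 29.9 and 32.9 FPKM in shDUSP23 against 114.7 and 132.4 FPKM in shMock. The prostaglandin-degrading enzyme gene HPGD and the aldehyde dehydrogenase gene ALDH1A1 came next, at 0.124 and 0.139.

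The table listed 7 CPS1 transcripts. CPS1-201, a protein-coding transcript from 210556599 to 210679107, had 20.9 and 13.3 FPKM in shDUSP23 against 64.8 and 72.6 FPKM in shMock. It was the only CPS1 transcript called in a fit of all 37453 tested transcripts (log2 fold change -2.01, SE 0.25; limma adjusted p = 0.0374), in which 4.15% were called, 1.7% higher and 2.45% lower. That call was lost when any 1 of the 4 libraries was left out (adjusted p from 0.0881 to 0.301). CPS1-215, which begins at the upstream start and runs from 210477709 to 210679107, had 0 and 8.85 FPKM in shDUSP23 against 22.2 and 28.2 FPKM in shMock. Its shDUSP23 libraries were thus far apart, and it did not pass (log2 fold change -3.56, SE 1.43; adjusted p = 0.218).

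Grouped by start, the 2 upstream transcripts CPS1-212 and CPS1-215 summed to 0 and 9.71 FPKM in shDUSP23 against 23.9 and 29.8 FPKM in shMock. The 2 transcripts of the downstream start, CPS1-201 and CPS1-209, summed to 21.7 and 14.4 FPKM in shDUSP23 against 64.8 and 72.6 FPKM in shMock. Both starts were therefore lower in each shDUSP23 library, while the upstream share of CPS1 was 0% and 37.9% in shDUSP23 against 25.5% and 27.3% in shMock. CPS1-209, a short coding transcript that ends inside the gene, was listed at 0 in both shMock libraries and held 36 and 71 fragments in shDUSP23. The 2 retained-intron transcripts and 1 processed transcript inside the gene summed to 0.904 and 1.54 FPKM in shDUSP23 against 4.91 and 6.96 FPKM in shMock.

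FOXA1 (ENSG00000129514) had a single listed transcript, FOXA1-201, on chromosome 14 from 37589552 to 37595249. It had 6.14 and 5.67 FPKM in shDUSP23 against 3.24 and 2.54 FPKM in shMock. The groups did not overlap, and the log2 fold change was 0.92 (SE 0.22; limma adjusted p = 0.0103). These levels rested on 582 and 840 fragments in shDUSP23 and on 242 and 225 in shMock. The call was lost without shMock replicate 2 (log2 fold change 0.77, adjusted p = 0.0952).

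FOXA2 (ENSG00000125798, chromosome 20, minus strand) moved the other way. It had 5.75 and 5.74 FPKM in shDUSP23 against 8.72 and 8.84 FPKM in shMock, which gave a log2 fold change of -0.57 (SE 0.18; limma adjusted p = 0.0287). The libraries of each group lay close together and the groups apart. The call was lost without shMock replicate 1 (adjusted p = 0.133) or replicate 2 (0.157). It was also lost when every library was scaled to the same sum of FPKM, with a log2 fold change of -0.26 (adjusted p = 0.3). That scaling moved the median of all tested genes to 0.34, against 0.03 as deposited, and FOXA2 lay -0.60 from the median under either scaling.

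The steady FOXA2 totals hid a division between 2 coding transcripts that differed among libraries. FOXA2-201, from 22581005 to 22585455, had 0 and 5.42 FPKM in shDUSP23 against 4.82 and 5.66 FPKM in shMock. FOXA2-202, from 22580998 to 22584572, had 5.75 and 0.317 FPKM in shDUSP23 against 3.91 and 3.18 FPKM in shMock. All 394 fragments of shDUSP23 replicate 1 were thus assigned to FOXA2-202, and 550 of the 584 of replicate 2 to FOXA2-201. Neither transcript passed (limma adjusted p = 0.434 for FOXA2-201 and 0.649 for FOXA2-202), and the direction of each turned without the shDUSP23 library of its lower value (log2 fold change 0.05 and 0.63). These transcripts overlap over most of their length, and the values of single transcripts are estimates of the authors' quantifier.

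FOXA3 (ENSG00000170608), on chromosome 19 from 45864326 to 45873797, was the lowest of the 7 genes. It had 0.790 and 1.01 FPKM in shDUSP23 against 1.44 and 1.24 FPKM in shMock, from 41 and 82 fragments in shDUSP23 and 59 and 60 in shMock. Both shDUSP23 libraries were lower, but the difference did not pass (log2 fold change -0.40, 95% interval -1.15 to 0.35; limma adjusted p = 0.351).

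The balance of FOXA1 to FOXA2 restates their opposite changes, and it was higher in both shDUSP23 libraries than in either shMock library. The ratio of their FPKM was 1.07 and 0.987 in shDUSP23 against 0.372 and 0.287 in shMock. An exact permutation test, two-sided, gave p = 0.333, the smallest that 2 against 2 libraries allow, so it cannot decide whether the balance differed. The summed level of the 3 FOXA genes was 12.7 and 12.4 FPKM in shDUSP23 against 13.4 and 12.6 FPKM in shMock. By level FOXA1 and FOXA2 ranked 4 and 5 of the 7 genes in shDUSP23, where their libraries overlapped, and 5 and 3 in shMock, where they lay apart.

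HNF4A (ENSG00000101076, chromosome 20, plus strand) was the most abundant of the 6 factors in both groups. It had 9.82 and 13.2 FPKM in shDUSP23 against 9.05 and 9.39 FPKM in shMock, and the shDUSP23 libraries lay further from each other than replicate 1 lay from shMock. The difference did not pass (log2 fold change 0.29, 95% interval -0.14 to 0.72; limma adjusted p = 0.235). Scaled to equal sums it passed (log2 fold change 0.61, adjusted p = 0.0256), 0.27 above the median of all tested genes there. With GC content and transcript length corrected library by library it was -0.07 (adjusted p = 0.74).

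HNF4A is transcribed from 2 promoters whose products differ at the N-terminus, the downstream promoter being the main one in adult liver. The transcripts of the upstream start, HNF4A-202 and HNF4A-209, summed to 7.15 and 8.89 FPKM in shDUSP23 against 6.34 and 7.81 FPKM in shMock. Those of the downstream start, HNF4A-203 and HNF4A-204, summed to 2.67 and 4.28 FPKM in shDUSP23 against 2.72 and 1.58 FPKM in shMock. The upstream start thus held most HNF4A signal in every library, 72.8% and 67.5% in shDUSP23 against 70.0% and 83.2% in shMock, and its share overlapped between the groups. The longest transcript, HNF4A-209, from 44355801 to 44432843, had 6.49 and 6.35 FPKM in shDUSP23 against 5.79 and 6.65 FPKM in shMock (log2 fold change 0.04, 95% interval -0.51 to 0.59; limma adjusted p = 0.911).

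HNF4G (ENSG00000164749), the paralog of HNF4A on chromosome 8, had 3.21 and 2.27 FPKM in shDUSP23 against 2.31 and 2.48 FPKM in shMock. Its libraries overlapped between the groups (log2 fold change 0.15, 95% interval -0.46 to 0.76; limma adjusted p = 0.675). The main transcript, HNF4G-205, had 2.07 and 2.27 FPKM in shDUSP23 against 2.07 and 2.06 FPKM in shMock. The higher total of shDUSP23 replicate 1 came from HNF4G-201, with 53 fragments there, 0 in shDUSP23 replicate 2, and 9 and 18 in the shMock libraries.

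GATA6 (ENSG00000141448), on chromosome 18 plus strand, had 7.23 and 7.70 FPKM in shDUSP23 against 3.54 and 2.75 FPKM in shMock. The groups did not overlap (log2 fold change 1.13, SE 0.21; limma adjusted p = 0.00331). The levels rested on 644 and 938 fragments in shDUSP23 and on 273 and 252 in shMock. GATA6 stood next to FOXA1 in shMock, where the libraries of both overlapped, and above both FOXA1 and FOXA2 in shDUSP23. Of the 7 genes 6 had groups that did not overlap, against 75.5% of all genes tested.

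The GATA6 total combined 2 coding transcripts. GATA6-201, from 22169589 to 22202528, had 5.73 and 4.06 FPKM in shDUSP23 against 3.54 and 2.75 FPKM in shMock and did not pass (limma adjusted p = 0.325). GATA6-202, which begins further in at 22170933 and ends at 22200880, had 1.49 and 3.64 FPKM in shDUSP23 and was listed at 0 in both shMock libraries. It held 83 and 316 fragments in shDUSP23, or 20.7% and 47.2% of the GATA6 level, and did not pass over all transcripts (adjusted p = 0.118).

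**Figure D2:**
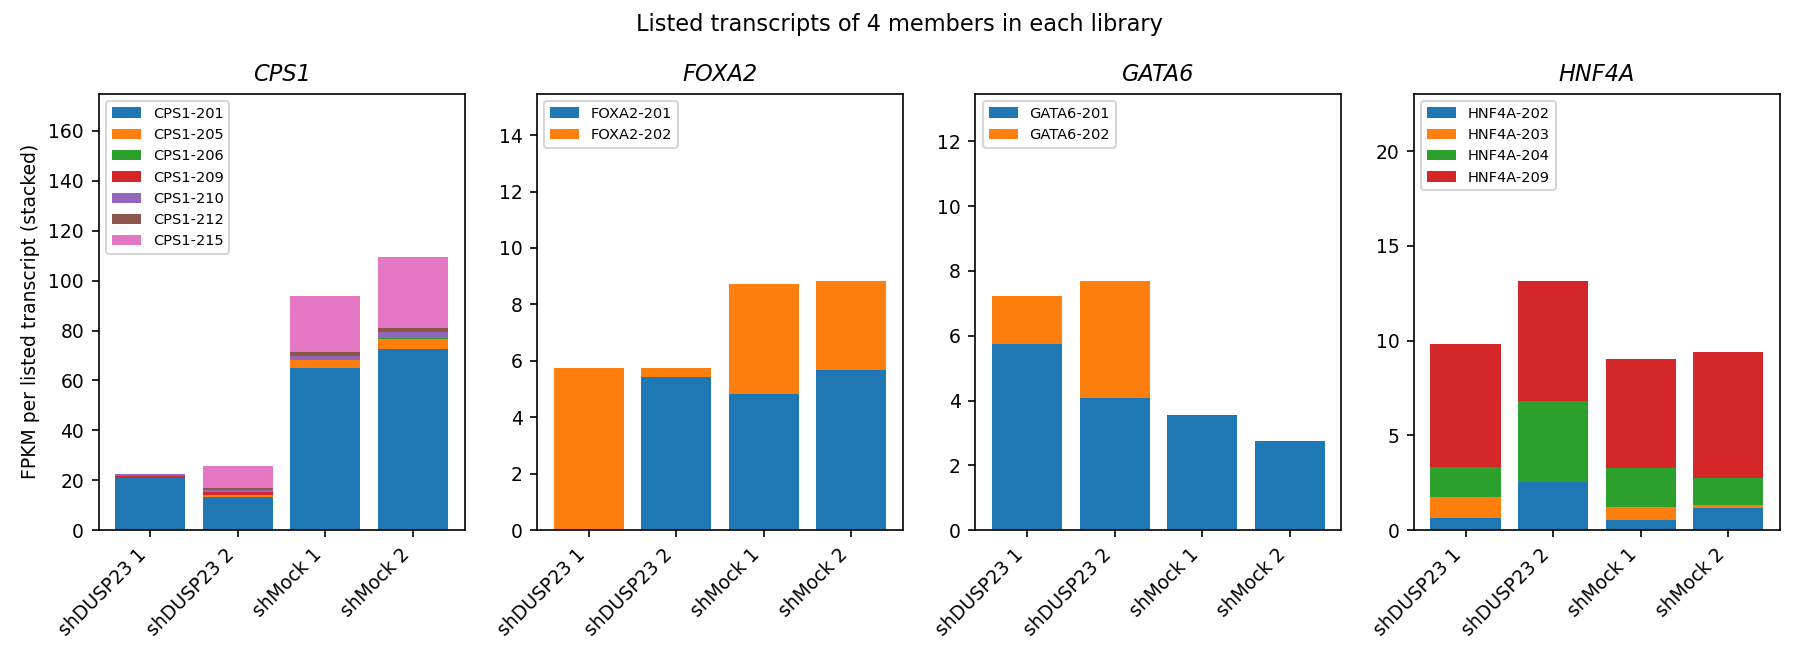
FPKM of each listed transcript (stacked bars, y axis from 0 and scaled per panel) of CPS1, FOXA2, GATA6 and HNF4A in each shDUSP23 and shMock library. FOXA2 reaches 5.75 and 5.74 FPKM in shDUSP23 through different transcripts, and GATA6-202 is present in the shDUSP23 bars and listed at 0 in the shMock bars.

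GC content of transcripts differed among the 7 genes, from 43.5% in CPS1 and 44.4% in HNF4G to 60.8% in FOXA3, with 58.7% in FOXA2 and 58.3% in GATA6. After correction for GC content and length, the log2 fold change was 0.77 for GATA6 (limma adjusted p = 0.0152) and 0.78 for FOXA1 (0.0178). For FOXA2 it was -0.85 (adjusted p = 0.0046), and for CPS1 -2.03 (9.73e-05). The fragments recovered for FOXA1, FOXA2 and GATA6, tested with voom, gave log2 fold changes of 1.04, -0.61 and 1.03 (adjusted p = 0.00274, 0.0175 and 0.0023).

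**Figure D3:**
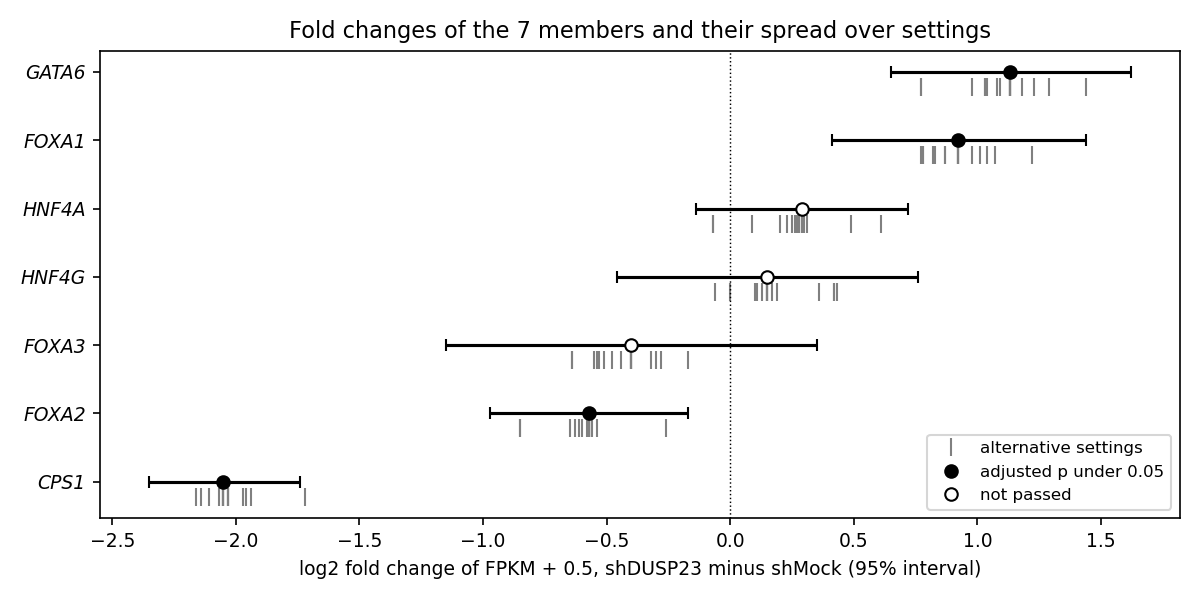
Log2 fold change of FPKM + 0.5, shDUSP23 minus shMock (x axis), with the 95% interval of the limma fit for the 7 genes (y axis), filled where adjusted p was under 0.05, and grey ticks for the alternative settings. The ticks of CPS1 run from -2.16 to -1.72, while those of HNF4A and HNF4G fall on both sides of 0.

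By the same distance, the genes closest in pattern to FOXA1 were CACNB1, PPP1R15B and TNFAIP3, at distances of 0.033, 0.042 and 0.042. For FOXA2 they were GPI, GPRIN2 and TCEAL4 (0.013, 0.020 and 0.022), and for GATA6 they were OAS2, BEX2 and FADS3 (0.040, 0.061 and 0.069). These distances rest on 4 libraries and describe a likeness of values only.

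Other transcription factors of the liver network moved in both directions. Of 16 tested factors 6 rose and 3 fell (6 and 2 with equal sums), with a median log2 fold change of -0.22 beside 0.03 over all tested genes. For this and the lists below, 23.1% of all tested genes rose and 22.2% fell. With equal sums 5279 of 13739 genes rose and 1693 fell. NR2F1, an orphan nuclear receptor, had 27.9 and 29.2 FPKM in shDUSP23 against 10.48 and 10.96 FPKM in shMock (log2 fold change 1.37, SE 0.14; limma adjusted p = 0.000191). CEBPA, a C/EBP factor of liver, fat and lung, had 7.28 and 7.91 FPKM in shDUSP23 against 3.09 and 3.61 FPKM in shMock (log2 fold change 1.07). PPARA, the nuclear receptor of fatty acid oxidation, had 3.37 and 3.28 FPKM in shDUSP23 against 0.887 and 0.839 FPKM in shMock. Its shMock mean of 0.863 FPKM lay below the filter, which it passed through shDUSP23. HHEX, a homeobox factor of early liver bud, was the most clearly lower, with 5.34 and 6.65 FPKM in shDUSP23 against 18.0 and 15.5 FPKM in shMock (log2 fold change -1.41).

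Most tested genes of liver-type secreted proteins were lower, as CPS1 was. Of 14 tested genes 2 rose and 8 fell (4 and 8 with equal sums), with a median log2 fold change of -1.58 beside 0.03 over all tested genes. The 4 with the smallest p were the fibrinogen genes FGB, FGA and FGG and the complement gene C5, with log2 fold changes of -3.60, -2.91, -3.71 and -2.85. C5 had 4.95 and 4.81 FPKM in shDUSP23 against 33.3 and 44.1 FPKM in shMock. The complement gene C3 and the lipid carrier gene APOE were the 2 that rose, and C3 had 144.8 and 178.9 FPKM in shDUSP23 against 96.0 and 94.4 FPKM in shMock. ALB, AFP, APOA1, TTR and AHSG, which mark hepatocytes most closely, were not among the 17 listed of 34.

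Other genes of the urea cycle and nitrogen metabolism changed in both directions. Of 11 tested genes 2 rose and 4 fell (2 and 2 with equal sums), with a median log2 fold change of -0.33 beside 0.03 over all tested genes. OAT, ornithine aminotransferase, had 30.5 and 29.7 FPKM in shDUSP23 against 65.0 and 93.4 FPKM in shMock (log2 fold change -1.36, SE 0.17). SLC25A13, the mitochondrial aspartate and glutamate carrier, had 12.7 and 11.9 FPKM in shDUSP23 against 25.1 and 23.7 FPKM in shMock (log2 fold change -0.96). ARG2, the mitochondrial arginase, rose, with 8.92 and 5.97 FPKM in shDUSP23 against 2.53 and 2.74 FPKM in shMock. ASS1 and ASL, enzymes of later steps of the urea cycle, did not pass, and ASS1 had 16.7 and 30.8 FPKM in shDUSP23 against 25.1 and 22.1 FPKM in shMock. OTC and ARG1 were not listed.

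Among factors of airway and alveolar lineages EHF, SPDEF and SOX2 were lower and ELF3 was higher. Of 11 tested airway and alveolar factors 1 rose and 3 fell (1 and 3 with equal sums, 0 and 5 with GC and length correction), and the median log2 fold change was -0.31. EHF, an epithelial ETS factor, had 1.85 and 1.82 FPKM in shDUSP23 against 8.46 and 9.99 FPKM in shMock (log2 fold change -2.05, SE 0.22; limma adjusted p = 0.000214). SPDEF, an ETS factor of goblet cells, and SOX2, a factor of proximal airway, fell too. SPDEF had 1.319 and 0.781 FPKM in shDUSP23 against 3.79 and 4.48 FPKM in shMock. SOX2 had 0.413 and 0.509 FPKM in shDUSP23 against 2.56 and 1.92 FPKM in shMock. Both lost their calls without shMock replicate 2 (log2 fold change -1.49 for SPDEF and -1.67 for SOX2). SOX2 passed the filter only through shMock, with a shDUSP23 mean of 0.461 FPKM. Without shMock replicate 1 it fell below the filter and was not tested. ELF3 rose by 0.46, a call lost without shMock replicate 2 (0.153) or shDUSP23 replicate 2 (0.0909), with GC and length correction (0.33, adjusted p = 0.0715), without a trend (0.0817) and with protein-coding transcripts only (0.0867). Of 6 tested genes of the gastrointestinal program 1 rose and 3 fell (1 and 3 with equal sums). AGR2, a disulfide isomerase of secretory cells, averaged 59.3 ± 0.50 FPKM in shDUSP23 and 387.8 ± 124.2 FPKM in shMock (SD, n = 2 each; log2 fold change -2.66), and TFF1, a trefoil peptide, had 14.5 and 17.2 FPKM in shDUSP23 against 64.0 and 65.7 FPKM in shMock. VIL1, the brush border protein villin and a known HNF4A target, fell by 1.26, a call lost without shMock replicate 2 (0.0765).

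In the families of GATA6 and the FOXA genes, GATA3 and FOXD1 were higher and FOXM1 was lower. Of 7 tested GATA family genes and cofactors 4 rose and 0 fell, with a median log2 fold change of 0.41. With equal sums 5 rose and 0 fell, where 5279 of all 13739 tested genes rose and 1693 fell. The counts were 4 and 0 with voom. They were also 4 and 0 at an unadjusted limma p under 0.05, which 7333 of all 13691 tested genes reached. GATA3, a factor of T cells and luminal epithelia, had 15.5 and 13.4 FPKM in shDUSP23 against 6.33 and 4.66 FPKM in shMock (log2 fold change 1.33, SE 0.20; limma adjusted p = 0.00108). GATA5, a paralog of GATA6 in endoderm, had 1.92 and 1.71 FPKM in shDUSP23 against 0.269 and 0.242 FPKM in shMock. It is counted among the 4 that rose, but it passed the filter only through shDUSP23, with a shMock mean of 0.2555 FPKM. The call of GATA5 was lost without shMock replicate 2. GATAD1 and GATAD2B, chromatin proteins, rose by 0.41 and 0.59 and lost their calls without either shMock library (0.106 and 0.0944 without replicate 1, 0.129 and 0.178 without replicate 2). GATAD1 also lost its call without shDUSP23 replicate 1 (0.0571) or 2 (0.0548) and without a trend (0.0646), and GATAD2B without shDUSP23 replicate 2 (0.104) and with GC and length correction (0.39, adjusted p = 0.096). Of 20 other tested forkhead genes 3 rose and 2 fell, a smaller share than the 45.3% called over all genes. With equal sums 9 rose and 2 fell, and there the share was not smaller than over all genes. With GC and length correction 2 rose and 4 fell. FOXM1, a factor of cell division, had 3.47 and 3.55 FPKM in shDUSP23 against 10.8 and 9.60 FPKM in shMock (log2 fold change -1.41). FOXQ1 fell by 1.57 and FOXD1 rose by 1.56, and FOXO3, which rose by 0.90, lost its call without shMock replicate 2 (0.0884).

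**Figure D4:**
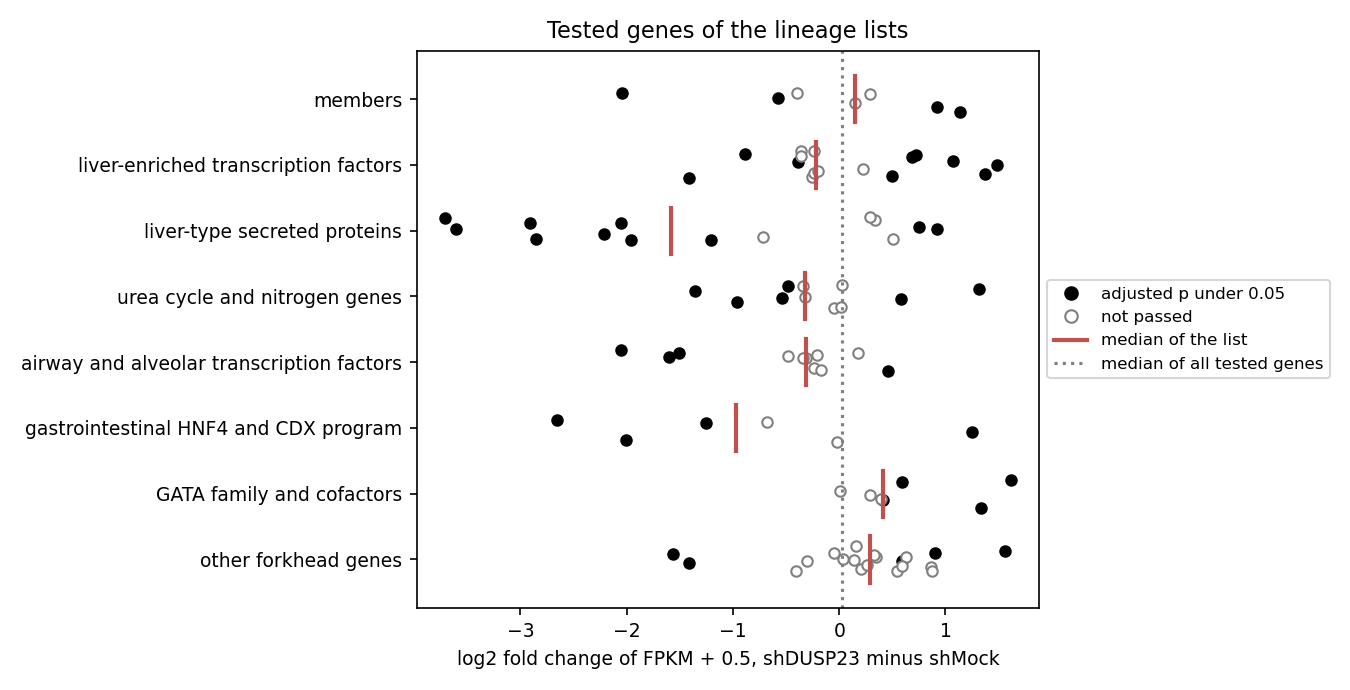
Log2 fold change of FPKM + 0.5, shDUSP23 minus shMock (x axis), for each tested gene of the 7 member genes and of 7 gene lists (y axis), filled where adjusted p was under 0.05, with red lines for list medians and a dotted line for the median of all tested genes, 0.03. The secreted protein list has a median of -1.58, and the 7 member genes 0.15.

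Of the genes beside the members 3 were tested, 0 rose and 1 fell in limma (0 and 2 at an unadjusted p under 0.05, and 0 and 1 with voom). LINC00261, the noncoding RNA next to FOXA2, had 2.17 and 1.54 FPKM in shDUSP23 against 2.93 and 4.13 FPKM in shMock (log2 fold change -0.77, SE 0.28; adjusted p = 0.0545). MIPOL1, a neighbour of FOXA1, had 1.77 and 3.47 FPKM in shDUSP23 against 4.83 and 3.05 FPKM in shMock, with groups that overlapped. Among 6 tested lung epithelial markers 2 rose and 1 fell (3 and 0 with equal sums). CAV1, a membrane protein of alveolar type I cells, had 111.1 and 102.7 FPKM in shDUSP23 against 62.5 and 57.5 FPKM in shMock (log2 fold change 0.83), while the calls of LAMP3 and LPCAT1 were less stable. LAMP3 lost its call without shMock replicate 2 (limma adjusted p = 0.183) or shDUSP23 replicate 1 (0.0628). LPCAT1 lost its call without shDUSP23 replicate 1 (0.143), shMock replicate 1 (0.0948) or shMock replicate 2 (0.226), with quantile normalization (0.0555), without a trend (0.0987) and with protein-coding transcripts only (0.169), and its log2 fold change was -0.05 with equal sums (0.772). ABCA3 did not pass, at 6.69 and 7.98 FPKM in shDUSP23 against 5.66 and 5.67 FPKM in shMock. NAPSA did not pass, at 3.22 and 2.42 FPKM in shDUSP23 against 1.96 and 2.14 FPKM in shMock. Among 6 epithelial identity genes 0 rose and 4 fell in limma (0 and 4 at an unadjusted p under 0.05 and with voom, 0 and 1 with equal sums), and the keratins KRT7 and KRT18, 2 of those 4, turned to higher values with quantile normalization and lost their calls without either shDUSP23 library (limma adjusted p from 0.143 to 0.233). EPCAM fell by 0.71 on the log2 scale. Its call was lost without shMock replicate 1 (limma adjusted p = 0.0758) or replicate 2 (0.207), and its log2 fold change was -0.41 both with equal sums (0.156) and with GC and length correction (0.132). CDH1, E-cadherin, had 6.20 and 8.14 FPKM in shDUSP23 against 22.4 and 21.5 FPKM in shMock (log2 fold change -1.56, SE 0.17). Of the 2 tested markers of other cell types 0 rose (1, COL1A1, at an unadjusted limma p under 0.05 and with voom) and CD14, a monocyte marker, fell, with 0.983 and 0.995 FPKM in shDUSP23 against 4.68 and 8.005 FPKM in shMock, and COL1A1 did not pass, at 3.92 and 4.66 FPKM in shDUSP23 against 2.93 and 2.48 FPKM in shMock; their part in the results was not tested.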

How the data were processed

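Total RNA of A549 cluster cells was made into mRNA libraries and sequenced on an Illumina NovaSeq instrument, per the labels. The deposited FPKM values were computed by the authors, per transcript and library; STAR 2.7.1a, DESeq2 1.32.0 and GRCh38 appear, without stated roles, in the submitters' processing notes. No source used here states the quantifier, annotation release or strandedness. FPKM was summed per gene ID. In genes with a single transcript, low FPKM values times GENCODE 29 length fell on whole fragments (100.0% within 0.1 fragment, up to 50 fragments, per library), which gave library totals and fragment counts. Lengths of members whose ends differ from that release were shifted by the difference. Genes and, separately, transcripts with a mean of at least 1 FPKM were tested with limma 3.58.1 in R 4.3.3 (lmFit, eBayes with trend, no covariates). The code was also run on values simulated from the means and spreads of its own fit. Such a run checks the code only and cannot show how well the model suits these data. The members and the 11 lists were chosen with earlier results of these data known. By a fixed rule, up to 4 genes per list with the smallest p are named; C3, APOE, ASS1, ASL, NAPSA, KRT8 and markers given as not listed were named after their values were seen, and some genes of the lists are not reported here. Alternatives changed pseudocount, filter, scaling, eBayes options, block, biotype and libraries; GC and length correction (splines, 5 degrees of freedom) and voom on recovered fragments were added after the data were seen. Promoter windows came from RefSeq. Tables used pandas 2.3.3 and numpy 2.4.6 in Python 3.11.15, and figures matplotlib 3.10.9.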

Additional observations from a re-analysis of the deposited data

How the results depend on the processing

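Of the called members, CPS1 and GATA6 kept direction and call in every alternative run on them. FOXA1 lost its call only without shMock replicate 2. Over the fits without 1 library the log2 fold change ran from -2.16 to -1.94 for CPS1, 0.98 to 1.29 for GATA6, 0.77 to 1.07 for FOXA1, -0.58 to -0.56 for FOXA2, -0.51 to -0.28 for FOXA3, 0.09 to 0.49 for HNF4A and -0.06 to 0.36 for HNF4G. FOXA2 gave -0.26 and HNF4A 0.61 with equal sums. HNF4A turned to -0.07 with GC and length correction, and to -0.07 with the replicate block added to it. The cause was not tested. Members changed numbered 4 of 7, and 2 to 4 without 1 library. Genes changed numbered 6202 (3166 higher, 3036 lower), 5279 and 1693 with equal sums, and 3464 to 6442 without 1 library, 4038 without shMock replicate 1 and 3464 without replicate 2. Transcripts changed numbered 1554 in limma, 463 without a filter and 3408 at a mean of at least 5 FPKM. They numbered 0 without a trend (8756 at an unadjusted p under 0.05), 0 with the replicate block (8772), 0 with that block and GC correction (8232) and 0 without any 1 library (4768 to 11582), and CPS1-201 lost its call in each of these but the stricter filter. Among transcripts, the direction turned for FOXA2-201 (-3.52 to 0.05 without 1 library), FOXA2-202 (-2.30 to 0.63), HNF4A-204 (-0.07 to 1.12) and HNF4G-205 (-0.01 with quantile normalization). HNF4A-209 gave -0.01 with median-ratio rescaling, -0.00 with quantile normalization, -0.05 to 0.14 without 1 library, -0.26 with GC correction and -0.26 with the block added. Of list genes, ABCA3 turned to -0.16 with GC correction and to -0.16 with the block added. KRT18 turned to 0.39 and KRT7 to 0.30 with quantile normalization, and KRT7 to 0.00 with equal sums. Groups share replicate numbers, and differences between replicates correlated at 0.053 across genes. The labels do not say whether the numbers pair the libraries, and a low correlation cannot settle it. With the replicate block 6707 genes and 4 members were called. Depth limits FOXA3, at 41 to 82 fragments.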

Other observations

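Among 8733 genes with more than 1 listed transcript and a mean of at least 5 FPKM, the leading transcript differed between the 2 libraries of a group in 20.6% in shDUSP23 and in 14.0% in shMock. A transcript at 0 in 1 library with at least 50% of its gene in the other was found in 109 of these genes in shDUSP23 and in 14 in shMock. FOXA2 was the only member among them, in shDUSP23.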
